A study of Mus musculus with 12 samples.

Results

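Insulin-like growth factor (IGF) and insulin signalling with the IGF-binding proteins was followed in cultured mouse retina through 10 genes. They were chosen by name from the gene table of 53707 genes, with earlier results of these data known. They were the ligand gene Igf1, the receptor genes Igf1r and Insr, the receptor substrate genes Irs1 and Irs2, and the binding-protein genes Igfbp2, Igfbp3, Igfbp4, Igfbp5 and Igfbp7. All 10 were in the table, and all 10 passed the filter on low counts that left 21061 genes for testing. Retinas of wild-type C57BL/6J mice, 28 days of age, were freed of the retinal pigment epithelium and kept for 48 hours as explants in Neurobasal-A medium. One group received 5 mM glucose and the other 25 mM, and both received the supplements B27 and N2, whose usual formulations contain insulin. Each group had 3 biological replicates, and each of these had 2 technical replicates that formed batch 1 and batch 2, so there were 12 libraries. The labels do not say whether biological replicates were separate animals or cultures, or how many retinas each one held, so p-values measure the spread between these samples, which may in part be technical.

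Insulin and the insulin-like growth factors bind receptor tyrosine kinases at the cell surface. The activated receptors phosphorylate insulin receptor substrates and other adaptors, which start the PI3K, AKT and mTOR branch and the Ras and MAP kinase branch. AKT in turn keeps FOXO transcription factors out of the nucleus. IGF-binding proteins are secreted carriers that hold IGF outside the cell and are cleaved by proteases, and Igfbp7 is a related protein with weak affinity for IGF. In the retina several of these carriers are known as products of vascular cells and glia.

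The deposited values are estimated counts, which divide reads that match several transcripts. Totals per library ran from 17998905 to 36692484 at 5 mM glucose and from 14815285 to 23129541 at 25 mM. The technical replicates of each biological replicate were summed, and values are given as CPM, counts scaled to a common library size with TMM factors. The tissue label was checked against its markers: the 11 rod genes summed to 3264 to 5540 CPM at 5 mM glucose and 7284 to 9262 CPM at 25 mM, and 6 of the 7 pigment epithelium genes averaged under 1 CPM. Technical libraries of a replicate were not alike: the summed CPM of 10 endothelial markers was 1670 and 655 in the libraries of replicate 1 at 5 mM and 358 and 1094 in those of replicate 2 at 25 mM. FDR stands for the p of edgeR's quasi-likelihood test after Benjamini-Hochberg adjustment over all genes tested, and genes were called at an FDR under 0.05.

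The binding-protein genes were lower at 25 mM than at 5 mM glucose in 4 of 5 cases without overlap between replicates, while the receptor and substrate genes had overlapping values. The largest difference was in Igfbp7, 3.87 times as high in the mean at 5 mM, followed by Igfbp5 at 3.23 times, Igfbp4 at 2.54 times and Igfbp3 at 2.26 times. Igf1 was 1.52 times as high at 5 mM in the gene table, also without overlap. None of these differences passed the threshold: 0 of the 10 genes had an FDR under 0.05 with edgeR, where 1.98% of all genes were called in either direction and 0.513% as lower. At an unadjusted p under 0.05 there were 5 of 10, all lower at 25 mM, where 28.7% of all genes reached that p in either direction and 15.5% as lower. Replicates did not overlap in the lower direction in 5 of 10 genes, against 15.8% of all genes, and in the higher direction in 0 of 10, against 16% of all genes. Since the 10 genes were chosen with earlier results of these data known, these shares are descriptions only. With 3 replicates against 3, the smallest two-sided exact permutation p is 0.1, which those 5 genes had. The median log2 fold change (25 mM minus 5 mM) was -0.89 over the 10 genes, -1.34 over the 5 binding proteins and -0.0095 over all genes tested.

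**Figure D1:**
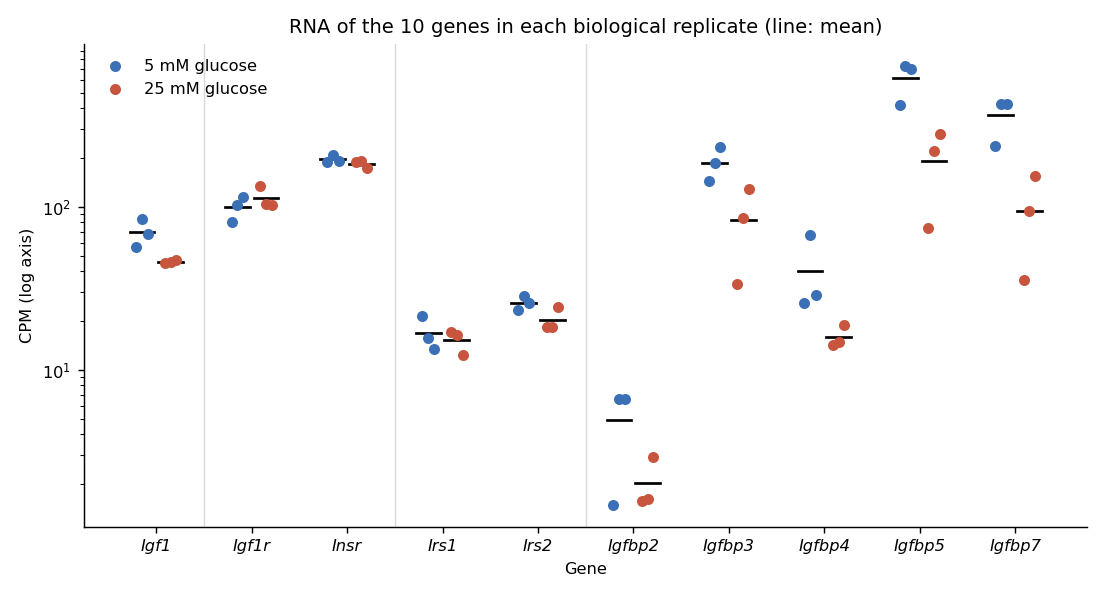
CPM (log axis) of the 10 genes in each of 3 biological replicates at 5 mM (blue) and 25 mM glucose (red), with a line at the mean and the replicates from left to right in the order of their numbers. Points of both groups are apart for Igf1, Igfbp3, Igfbp4, Igfbp5 and Igfbp7 and overlap for the other genes.

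Igf1 (ENSMUSG00000020053, chr10:87858265-87937042 on the plus strand of GRCm38) encodes the IGF that signals through Igf1r. It had 56.5, 84.0 and 68.0 CPM in replicates 1, 2 and 3 at 5 mM glucose and 45.3, 45.4 and 46.8 CPM at 25 mM. All 3 values at 25 mM lay below the lowest at 5 mM, and they lay close together. The log2 fold change was -0.60 (standard error 0.18, edgeR FDR 0.0919).

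The Igf1 difference was not the same in the gene table and in the plain sum of its transcripts. Summed over its annotated transcripts and scaled by the same library sizes, Igf1 had 66.7, 46.5 and 42.9 CPM at 5 mM and 60.7, 60.1 and 44.3 CPM at 25 mM. These values overlapped, and the log2 fold change in the fit on transcript sums was 0.093 (standard error 0.22, edgeR FDR 0.797), opposite in direction to that of the gene table. The gene table is not the plain sum of the transcript table. Over 12375 genes with several transcripts, the ratio of the gene value to the summed length-normalized transcript values varied less between libraries (median SD of 0.0636 on the log2 scale) than its ratio to the plain sum (0.114). For Igf1 the mean transcript length weighted by abundance was 5617, 2845 and 3157 bases at 5 mM and 6239, 6186 and 4588 bases at 25 mM. The tables differed most in replicates 2 and 3 at 5 mM, where this length was shortest. The summed length-normalized values of the transcript table (TPM) had the direction of the gene table. They were 26.7 ± 5.38 at 5 mM and 19.8 ± 1.87 at 25 mM (SD, n = 3), with a lowest value of 22.3 at 5 mM and a highest of 21.6 at 25 mM.

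The transcript that held most of the Igf1 counts was Igf1-202 of 7052 bases, with 92.4%, 68.8% and 71.1% at 5 mM and 96.1%, 96.1% and 86.3% at 25 mM glucose. Next was Igf1-203 of 1673 bases, with 6.24%, 18.8% and 21.1% at 5 mM against 3.13%, 2.08% and 9.18% at 25 mM. The groups overlapped, since replicate 1 at 5 mM lay below replicate 3 at 25 mM (two-sided exact permutation p of 0.2). The log2 fold change of the Igf1-203 counts was -1.67 (standard error 0.53, edgeR FDR 0.24). In the annotation, 3 of the 8 Igf1 transcripts include a coding exon of 52 bases that changes the end of the precursor, the E peptide, and Igf1-203 is among them while Igf1-202 is not. The exon is exon 4 of Igf1-203, at chr10:87915298-87915349 on the plus strand of GRCm38, and is shown because it separates the long main transcript from the next one. Its sequence, 5′ to 3′ and all in lower case because no motif was searched in it, follows.
Igf1-203 exon 4: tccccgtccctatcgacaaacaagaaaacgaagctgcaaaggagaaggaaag
Exon use itself was not counted in the deposited files, and these shares rest on the estimation of transcripts of unequal length.

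**Figure D2:**
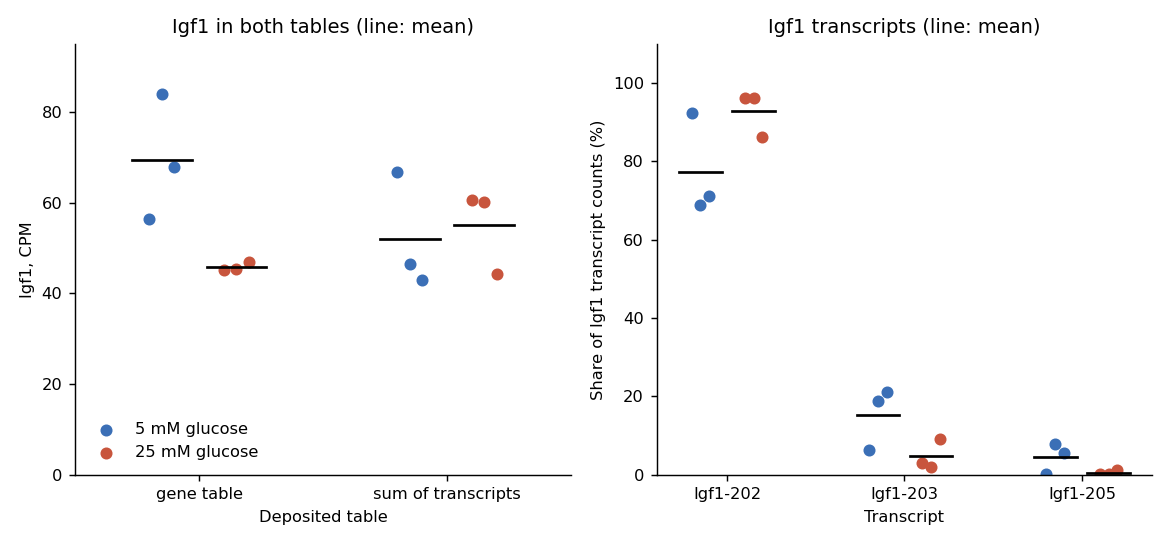
Left, Igf1 CPM in each of 3 biological replicates from the gene table and from the sum of its transcripts, at 5 mM (blue) and 25 mM glucose (red), with a line at the mean. Right, share of the Igf1 transcript counts (%) held by Igf1-202, Igf1-203 and Igf1-205; the groups are apart in the gene table and overlap in the transcript sum and in these shares.

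Igf1r and Insr encode the receptor tyrosine kinases for IGF and insulin, and their RNA showed small differences. Igf1r (ENSMUSG00000005533, chr7:67952827-68233668, plus strand) had 80.2, 102 and 114 CPM at 5 mM and 133, 103 and 102 CPM at 25 mM glucose. Its highest and lowest values were both in replicate 1, at 25 mM and at 5 mM, and the log2 fold change was 0.19 (standard error 0.19, edgeR FDR 0.534), from 0.057 to 0.29 with each replicate left out. Insr (ENSMUSG00000005534, chr8:3122061-3279617, minus strand) had 187, 209 and 191 CPM at 5 mM and 189, 190 and 172 CPM at 25 mM. The values of Insr lay close together and overlapped, and the log2 fold change was -0.091 (standard error 0.15, edgeR FDR 0.705).

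The share that each transcript holds of its gene's counts was compared for the 24 tested transcripts of members with several transcripts. It was higher at 25 mM without overlap in 3, Igf1r-205, Insr-204 and Igfbp4-206, where 13.3% of all such transcripts were, and lower without overlap in 2, Igf1r-201 and Insr-201, against 6.32% of all. Igf1r-205 and Insr-204 are annotated as intron-retaining and are described because they are the largest of their kind, a choice made after their values were seen. Igf1r-205, a transcript of 2668 bases with 1 exon, held 5.76%, 5.04% and 5.49% of Igf1r counts at 5 mM and 7.42%, 8.62% and 7.53% at 25 mM glucose. Insr-204, of 4019 bases with 1 exon, held 5.64%, 4.17% and 4.25% of Insr counts at 5 mM and 9.41%, 9.84% and 7.54% at 25 mM. Both shares had a two-sided exact permutation p of 0.1, the smallest possible here. Of the 8 intron-retaining transcripts annotated in the 10 genes, 5 overlapped, and the third that was higher without overlap was Igf1r-202. It held at most 0.219% of Igf1r counts and was not among the 24 tested transcripts. The share over all intron-retaining transcripts was not computed, so the count among these 8 has no background. Among the overlapping ones, Igf1r-203 and Igf1r-206 had lower mean shares at 25 mM, 0.138% against 0.356% and 0.719% against 0.89%. The counts of these transcripts had log2 fold changes of 0.60 for Igf1r-205 (edgeR FDR 0.282) and 0.73 for Insr-204 (edgeR FDR 0.266). Most counts stayed on the full-length coding transcripts, 92.4% ± 0.58 against 89.9% ± 0.47 for Igf1r-201 and 94.6% ± 0.59 against 90.4% ± 1.01 for Insr-201 (SD, n = 3). Of the 26 transcripts of the 10 genes that were tested, 0 had an edgeR FDR under 0.05 and 9 an unadjusted p under 0.05. Among all 64990 transcripts tested these shares were 0% and 16.4%.

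The insulin receptor has a known alternative exon of 36 bases, which is present in isoform B and absent from isoform A. In the annotation only 1 of the 5 Insr transcripts holds it, the fragment Insr-203 of 672 bases, and the full-length Insr-201 does not. The exon lies at chr8:3181702-3181737 on the minus strand and is shown because the deposited counts cannot separate the isoforms without it.
Insr-203 exon 4: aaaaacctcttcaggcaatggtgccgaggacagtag
Insr-203 held 0.07%, 1.13% and 0.44% of Insr counts at 5 mM and 0.60%, 0.11% and 0.55% at 25 mM glucose, so the groups overlapped. Reads of isoform B outside this fragment would be counted on Insr-201, so these shares are not the shares of isoform B.

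Irs1 and Irs2 encode the docking proteins that receptors phosphorylate. Irs1 (ENSMUSG00000055980, chr1:82233101-82291416, minus strand) had 21.2, 15.7 and 13.5 CPM at 5 mM and 17.0, 16.4 and 12.3 CPM at 25 mM glucose. The groups overlapped, with a log2 fold change of -0.14 (standard error 0.25, edgeR FDR 0.731) that turned to 0.063 without replicate 1 at 5 mM. Irs2 (ENSMUSG00000038894, chr8:10984681-11008458, minus strand), which FOXO factors are known to activate when insulin signalling is weak, had 23.4, 28.3 and 25.5 CPM at 5 mM and 18.2, 18.3 and 24.1 CPM at 25 mM. Only replicate 3 at 25 mM reached the values at 5 mM, and the log2 fold change was -0.35 (standard error 0.20, edgeR FDR 0.278). Each gene shares exon sequence with a gene on the opposite strand, Irs1 with Gm9747 and Irs2 with 9530052E02Rik. Whether counting used the strand is not given in the sources used here, so their levels are uncertain to that extent.

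Of the binding-protein genes, Igfbp7 (ENSMUSG00000036256, chr5:77349240-77408041, minus strand) had 237, 428 and 426 CPM at 5 mM and 35.5, 93.5 and 153 CPM at 25 mM glucose. The log2 fold change was -1.95 (standard error 0.49, edgeR FDR 0.0681). Every value at 25 mM lay below every value at 5 mM, but replicates 1 and 3 at 25 mM were themselves far apart. Its exons overlap those of Polr2b on the opposite strand. Igfbp5 (ENSMUSG00000026185, chr1:72857932-72874884, minus strand), a carrier that also binds extracellular matrix, had 421, 729 and 698 CPM at 5 mM and 74.1, 221 and 277 CPM at 25 mM. Its log2 fold change was -1.69 (standard error 0.45, edgeR FDR 0.0734). Igfbp3 (ENSMUSG00000020427, chr11:7206086-7213923, minus strand), the main IGF carrier of the blood, had 143, 184 and 233 CPM at 5 mM and 33.7, 85.2 and 128 CPM at 25 mM. Its log2 fold change was -1.18 (standard error 0.43, edgeR FDR 0.124). In all 3 genes replicate 1 was the lowest within each concentration.

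Igfbp4 and Igfbp2 had another order of replicates. Igfbp4 (ENSMUSG00000017493, chr11:99041244-99054392, plus strand), a carrier that the protease Pappa cleaves, had 25.7, 66.7 and 28.6 CPM at 5 mM and 14.2, 14.7 and 18.8 CPM at 25 mM glucose. Replicate 2 at 5 mM stood above the other 5 values, and the log2 fold change was -1.34 (standard error 0.37, edgeR FDR 0.0761). Without that replicate it was -0.78 (edgeR FDR 0.191). Igfbp2 (ENSMUSG00000039323, chr1:72824503-72852474, plus strand), a carrier abundant in the nervous system, had 1.48, 6.63 and 6.64 CPM at 5 mM and 1.55, 1.62 and 2.92 CPM at 25 mM. It was the lowest of the 10 genes in CPM, and replicate 1 at 5 mM lay below every value at 25 mM. Its log2 fold change was -1.27 (standard error 0.56, edgeR FDR 0.176), and -1.71 (edgeR FDR 0.0151) without that replicate.

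Compared as TPM, a level per length of transcript, Igfbp7 had the highest level at 5 mM glucose, 595 ± 208 TPM, followed by Igfbp5 at 188 ± 58.7, Igfbp3 at 142 ± 42.9 and Insr at 45.3 ± 2.88 (SD, n = 3). Igf1, Igfbp4 and Igf1r came next, with 26.7 ± 5.38, 24.1 ± 12.5 and 23.1 ± 3.85 TPM, and their replicates overlapped from neighbour to neighbour. Below them were Igfbp2 at 8.58 ± 5.09, Irs2 at 7.73 ± 1.04 and Irs1 at 3.51 ± 0.82 TPM. In that order Igfbp5 overlapped with Igfbp3 and Igfbp2 with Irs2, while the other neighbours were apart. At 25 mM glucose the levels were closer: Igfbp7 had 160 ± 105, Igfbp3 65.3 ± 39.0, Igfbp5 59.7 ± 32.2 and Insr 47.2 ± 4.38 TPM, each overlapping with the next. Of the summed TPM of the 5 binding proteins, Igfbp7 held 62.2% at 5 mM and 53.4% at 25 mM.

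The binding-protein values differed between batches. In batch 1 the summed CPM of Igfbp3, Igfbp5 and Igfbp7 ran from 1016 to 1802 at 5 mM glucose and from 93.1 to 350 at 25 mM. In batch 2 it ran from 485 to 1032 at 5 mM and from 139 to 730 at 25 mM, so the concentrations overlapped there. The log2 fold changes of Igfbp7 were -3.09 (standard error 0.57, edgeR FDR 0.0121) in batch 1 and -1.03 (standard error 0.60, edgeR FDR 0.48) in batch 2. Those of Igfbp5 were -3.11 (edgeR FDR 0.00815) and -0.46 (edgeR FDR 0.695), and those of Igfbp3 were -2.20 (edgeR FDR 0.0277) and -0.31 (edgeR FDR 0.825). Igf1 and Igfbp4 differed less between batches, with -0.51 and -0.66 for Igf1 and -1.49 and -1.04 for Igfbp4. In batch 1 alone 3 of the 10 genes were called, against 17.3% of all genes, and in batch 2 alone 0 of 10, against 0% of all genes, with 2 of 10 at an unadjusted p under 0.05, where 11.7% of all genes reached it.

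The difference between batches was tested over all 12 libraries, blocking on the biological replicate. The fold change of Igfbp5 was 2.42 higher in batch 2 on the log2 scale (unadjusted p 0.00288, edgeR FDR 0.178), that of Igfbp7 2.07 higher (unadjusted p 0.0166, edgeR FDR 0.23) and that of Igfbp3 1.91 higher (unadjusted p 0.0498, edgeR FDR 0.306). No gene of the 18725 tested passed an edgeR FDR of 0.05 in that test, 3056 had an unadjusted p under 0.05, and the lowest FDR was 0.121. The other 7 genes had unadjusted p values above 0.05.

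**Figure D3:**
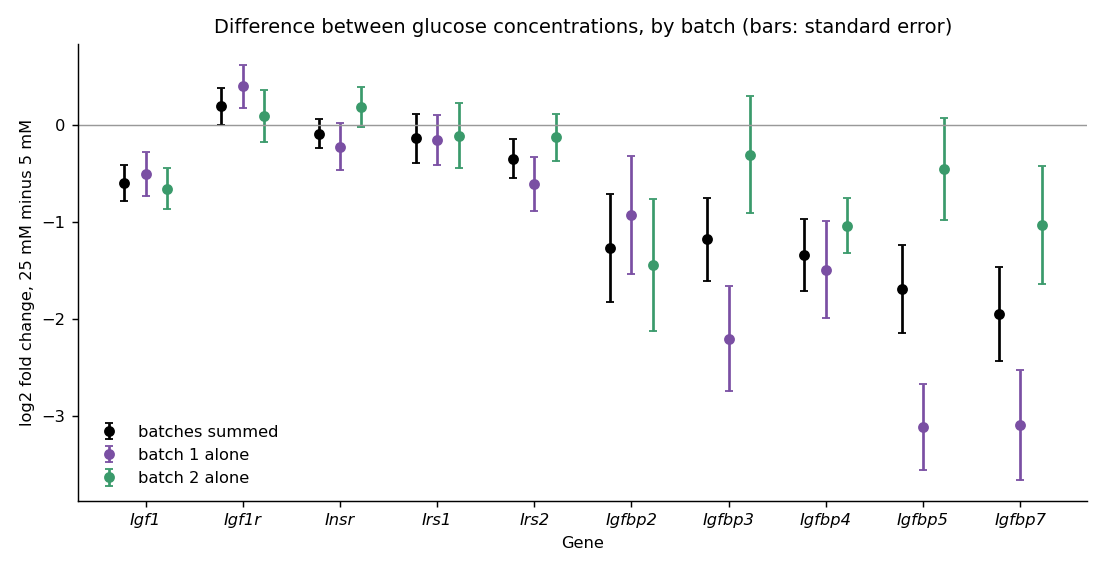
Log2 fold change (25 mM minus 5 mM) of the 10 genes with its standard error, for the batches summed (black, 3 replicates against 3), batch 1 alone (purple) and batch 2 alone (green). Igfbp3, Igfbp5 and Igfbp7 are further below 0 in batch 1 than in batch 2.

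The number of genes called depended on individual samples. Without replicate 1 at 5 mM glucose, which had the lowest summed binding-protein CPM of its group (828 against 1414 and 1391), 5 of 10 genes were called with edgeR, against 26.6% of all genes, and all 5 were lower at 25 mM. They were Igf1 (FDR 0.0188), Igfbp2 (0.0151), Igfbp4 (0.0173), Igfbp5 (0.0226) and Igfbp7 (0.0192). Without replicate 3 at 25 mM the count was 1, Igfbp7 (edgeR FDR 0.0476), against 494 of the 21769 genes tested. DESeq2 on all samples called 4 of 10, against 14.6% of all genes: Igfbp3 (DESeq2 adjusted p 0.0377), Igfbp4 (0.00566), Igfbp5 (0.00221) and Igfbp7 (0.000669). With limma-voom 0 of 10 were called, against 418 of the 21061 genes tested. Without the second library of replicate 1 at 5 mM, edgeR called Igfbp5 (FDR 0.0464) and Igfbp7 (FDR 0.0402), against 1722 of the 20935 genes tested. Without the first library of replicate 2 at 25 mM it called 0 of 10, against 0 of the 20901 genes tested.

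Igfbp3, Igfbp5 and Igfbp7 varied together between libraries. After the mean of each glucose concentration was taken off, Pearson's r of log2 CPM over the 12 libraries was 0.98 between Igfbp3 and Igfbp7, 0.95 between Igfbp5 and Igfbp7 and 0.93 between Igfbp3 and Igfbp5. Irs2 varied with them too, with r of 0.85 against Igfbp7, 0.84 against Igfbp3 and 0.76 against Igfbp5. Igfbp4 and Igfbp2 were less like them, with r against Igfbp7 of 0.37 and 0.29. Irs1 and Igf1r varied the other way, with r against Igfbp7 of -0.61 and -0.47. These are descriptions, since paired libraries share a biological replicate and all libraries share the batch split. The genes most alike, among 14204 protein-coding genes of at least 1 CPM, were Tek, Adgrf5 and Adamts9 for Igfbp3 (r of 0.998, 0.995 and 0.991). For Igfbp7 they were Cdh5, F11r and Fbln5 (0.993, 0.992 and 0.991), and for Igfbp5 Myo1e, Loxl2 and Synpo (0.988, 0.985 and 0.981). Tek encodes the angiopoietin receptor of endothelial cells and Cdh5 the cadherin of their junctions. For Igfbp4 they were Myo1g, Adcy7 and Tedc1 (0.872, 0.865 and 0.864), and for Igfbp2 Pomp, Ift43 and Sirt2 (0.956, 0.95 and 0.941). Igf1 was most like Ptms, Tsc22d4 and Slc26a11 (0.943, 0.929 and 0.92). For the receptors they were Iqce, Fam173b and Eml3 with Igf1r (0.963, 0.963 and 0.959) and Fam210a, Exoc8 and Pdcl with Insr (0.861, 0.856 and 0.853). For the substrates they were Lrrc4c, Dclk1 and Plcxd2 with Irs1 (0.96, 0.942 and 0.925) and Fbxo34, Rbmxl1 and Snrnp40 with Irs2 (0.959, 0.947 and 0.944).

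The sequences before the starts of Igfbp3, Igfbp4, Igfbp5 and Igfbp7 are shown because these 4 genes had the lower values without overlap, 3 of them varying together. Each is the 250 bases before the RefSeq start in GRCm38.p6, 5′ to 3′ on the strand of the gene. Capitals mark matches on either strand to the GC box (GGGCGG), a FOXO site (GTAAACA), an E box (CACGTG) or the TATA box (TATAAA), and no matches to different motifs overlapped. The windows are chr11:7213924-7214173 for Igfbp3, chr11:99040994-99041243 for Igfbp4, chr1:72874866-72875115 for Igfbp5 and chr5:77408046-77408295 for Igfbp7.
Igfbp3: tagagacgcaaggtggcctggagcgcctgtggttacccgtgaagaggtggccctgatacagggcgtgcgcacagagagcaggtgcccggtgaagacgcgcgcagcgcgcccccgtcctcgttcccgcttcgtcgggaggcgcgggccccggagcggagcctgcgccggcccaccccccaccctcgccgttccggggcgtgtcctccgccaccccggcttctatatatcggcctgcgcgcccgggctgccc
Igfbp4: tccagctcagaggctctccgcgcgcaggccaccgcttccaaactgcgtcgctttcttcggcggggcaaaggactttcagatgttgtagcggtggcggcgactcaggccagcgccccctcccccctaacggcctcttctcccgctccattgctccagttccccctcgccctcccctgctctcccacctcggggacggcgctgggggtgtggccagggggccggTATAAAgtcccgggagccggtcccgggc
Igfbp5: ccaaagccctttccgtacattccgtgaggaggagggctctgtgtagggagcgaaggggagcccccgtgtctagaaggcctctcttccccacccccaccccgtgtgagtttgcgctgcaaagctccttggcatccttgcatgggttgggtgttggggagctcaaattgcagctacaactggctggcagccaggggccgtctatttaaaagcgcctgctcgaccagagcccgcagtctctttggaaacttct
Igfbp7: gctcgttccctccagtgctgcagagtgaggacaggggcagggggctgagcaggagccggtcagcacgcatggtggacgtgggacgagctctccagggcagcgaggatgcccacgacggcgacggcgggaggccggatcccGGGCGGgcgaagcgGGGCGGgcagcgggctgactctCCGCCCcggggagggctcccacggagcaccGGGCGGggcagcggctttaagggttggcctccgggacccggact
Igfbp7 held 4 GC boxes, of which 1 was on the other strand, Igfbp4 held 1 TATA box, and Igfbp3 and Igfbp5 held no match. GC boxes occur in 32.7% of 32851 RefSeq windows of this length, TATA boxes in 12.4%, E boxes in 6.02% and FOXO sites in 3.17%. Igfbp3, Igfbp5 and Igfbp7 thus had no match in common. Their windows had 73.2% (Igfbp3), 58.8% (Igfbp5) and 74.0% (Igfbp7) G and C, where the median of all windows was 52.4%. RefSeq windows were found for 9 of the 10 genes, with 10 windows in all, and none was found for Insr. A FOXO site was in 0 of the 10 windows, and E boxes were in those of Igfbp2, Irs1 and Irs2. A match or its absence is a description of these letters only.

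Summed endothelial markers were lower at 25 mM glucose as well, without overlap. The 10 endothelial markers, with none at 0 and none averaging under 1 CPM, summed to 1257, 2109 and 2292 CPM at 5 mM and to 458, 804 and 1013 CPM at 25 mM glucose. Of these markers 9 had an unadjusted p under 0.05 as lower, against 15.5% of all genes. With edgeR 0 had an FDR under 0.05, against 1.98% of all genes, and the median log2 fold change was -1.67. Pecam1, the adhesion molecule that defines endothelium, had a log2 fold change of -1.94 (edgeR FDR 0.0732), and Cdh5 of -2.19 (edgeR FDR 0.0999). The 10 pericyte and smooth muscle markers summed to 423, 558 and 554 CPM at 5 mM and 251, 426 and 429 CPM at 25 mM, with none at 0, and these sums overlapped. Their median log2 fold change was -1.63, and Rgs5, with 209 to 351 CPM the largest part of the sum, had a log2 fold change of 0.094 (edgeR FDR 0.792), while Pdgfrb, the receptor that defines pericytes, had -2.46 (edgeR FDR 0.0594). In bulk RNA, fewer cells of a type and less RNA per cell cannot be told apart.

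Set against the endothelial sum of the same replicate, the binding proteins differed among themselves. Igfbp3 amounted to 11.4%, 8.72% and 10.2% of that sum at 5 mM and to 7.34%, 10.6% and 12.7% at 25 mM glucose, so the groups overlapped. Igfbp4 overlapped too, from 1.25% to 3.16% and from 1.83% to 3.10%. Igfbp5 amounted to 33.5%, 34.6% and 30.5% at 5 mM and 16.2%, 27.5% and 27.4% at 25 mM. Igfbp7 amounted to 18.9%, 20.3% and 18.6% at 5 mM and 7.73%, 11.6% and 15.1% at 25 mM, so both stayed without overlap on this scale. The endothelial sum includes Kdr, with 186, 232 and 242 CPM at 5 mM and 231, 216 and 198 CPM at 25 mM. Its log2 fold change was -0.033 (edgeR FDR 0.915), so Kdr weighed more in the sums at 25 mM. In replicate 1 at 25 mM, where the ratios of Igfbp5 and Igfbp7 were lowest, Kdr held 231 of the 458 CPM. In replicate 1 at 5 mM it held 186 of 1257 CPM. Ratios without Kdr were not computed, so the lack of overlap may rest on this marker. For neither gene is it read as a difference from the other endothelial markers. Set against the pericyte and smooth muscle sum, Igfbp3 amounted to 33.0% to 42.0% at 5 mM and 13.4% to 29.9% at 25 mM, and here its groups were apart. Igfbp5 was apart as well, from 99.6% to 131% and from 29.5% to 64.7%, as was Igfbp7, from 56.0% to 76.8% and from 14.1% to 35.7%. Igfbp4 overlapped, from 5.17% to 11.96% and from 3.45% to 5.65%. Rgs5, the largest part of the pericyte and smooth muscle sum, averaged 273 CPM at 5 mM and 292 CPM at 25 mM. It held 283, 255 and 283 CPM of the sums of 423, 558 and 554 CPM at 5 mM. At 25 mM it held 209, 351 and 316 CPM of 251, 426 and 429 CPM. Ratios without Rgs5 were not computed, so groups that were apart on this scale may be so through this marker. They are not read as a difference from the other pericyte and smooth muscle markers. The part of vascular cells in the differences was not tested. The 6 fibroblast markers summed to 199 to 222 CPM at 5 mM and 37.7 to 145 CPM at 25 mM. Of these 1 was called as lower (edgeR), against 0.513% of all genes, and 4 had an unadjusted p under 0.05 as lower. The 10 microglia markers summed to 303 to 443 CPM and 127 to 254 CPM, with 0 called and 7 at an unadjusted p under 0.05 as lower. Of all genes 15.5% reached that p as lower. The 10 Mueller glia markers summed to 3864 to 4938 CPM at 5 mM and 2579 to 3775 CPM at 25 mM. Their median log2 fold change was -0.19, with 6 below 0 and 4 above 0. Vim, the largest part of that sum at 5 mM, averaged 1892 CPM at 5 mM and 663 CPM at 25 mM (log2 fold change -1.51, edgeR FDR 0.0555).

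**Figure D4:**
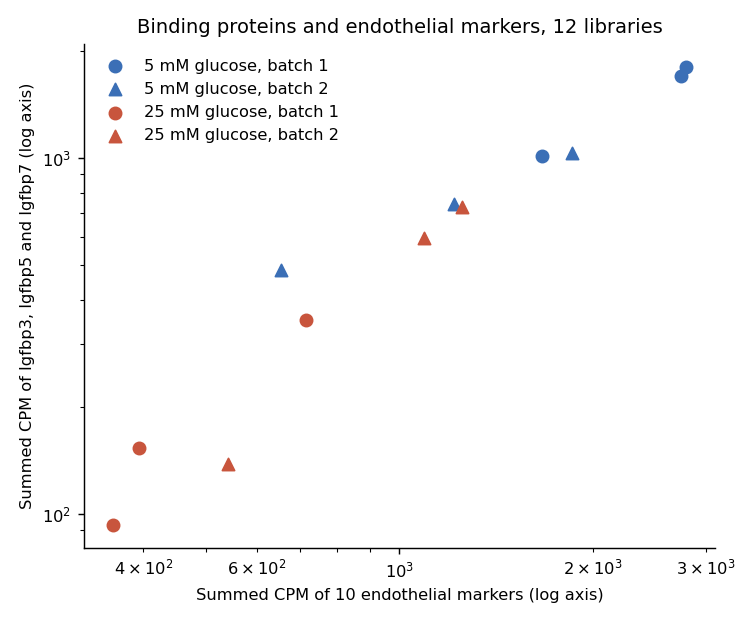
Summed CPM of Igfbp3, Igfbp5 and Igfbp7 against the summed CPM of 10 endothelial markers in each of the 12 libraries (both axes logarithmic), at 5 mM (blue) and 25 mM glucose (red), batch 1 as circles and batch 2 as triangles. The libraries lie along a band, from 93.1 and 358 CPM to 1802 and 2796 CPM, and in batch 2 the concentrations overlap on both axes.

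The rest of the pathway was read through 78 further genes in 8 lists, of which 71 were tested. None was called in either direction at an edgeR FDR under 0.05, where 1.98% of all genes were. At an unadjusted p under 0.05 there were 17 as lower and 4 as higher. Of all genes 15.5% reached that p as lower and 28.7% in either direction. The median log2 fold change was -0.30. Replicates did not overlap in 15 genes as lower and in 5 as higher, where 15.8% and 16% of all genes did not overlap in those directions. DESeq2 called 10 of the 73 it tested, all lower, against 14.6% of all genes. Without replicate 1 at 5 mM edgeR called 23 of 72 tested, of which 19 were lower, against 26.6% of all genes.

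Among other ligands, receptors and carriers 4 of 9 genes were tested, and 7 of 9, the insulin genes Ins1 and Ins2 among them, averaged under 1 CPM. The median of this list was -0.52, with 0 lower and 1 higher without overlap. Insrr, an orphan relative of the insulin receptor, averaged 0.47 CPM at 5 mM and 1.01 CPM at 25 mM glucose, with a log2 fold change of 1.08 (edgeR FDR 0.133). Igf2r, the receptor that clears IGF2, averaged 108 and 73.8 CPM, with -0.54 (edgeR FDR 0.195). The 6 genes of binding-protein proteases and their inhibitors had a median of -0.58, and 4 of them did not overlap as lower and 0 as higher. Of all genes 15.8% did not overlap as lower and 16% as higher. Htra3, a secreted serine protease, averaged 3.01 and 0.93 CPM, with a log2 fold change of -1.70 (edgeR FDR 0.0732). Stc1, which encodes stanniocalcin, an inhibitor of Pappa, averaged 72.8 and 44.5 CPM, with -0.71 (edgeR FDR 0.14).

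Of the adaptors 10 of 12 were tested, with a median of -0.40 and 4 lower without overlap, against 15.8% of all genes. Shc1, which links receptors to Ras, had 80.0 CPM in the mean at 5 mM and 36.1 at 25 mM glucose (log2 fold change -1.15, edgeR FDR 0.0652). Grb14, an adaptor that inhibits the insulin receptor, had 6.32 and 2.88 CPM (-1.13, edgeR FDR 0.0581). The 20 PI3K, AKT and mTOR genes had a median of -0.22, with 12 of 20 below 0, and 1 was lower and 1 higher without overlap. The most different were Pik3cd, a catalytic subunit known from leukocytes, at -1.59 (edgeR FDR 0.106) and Akt1 at -1.46 (edgeR FDR 0.0841). The 9 Ras and MAP kinase genes had a median of -0.18, with 2 lower and 1 higher without overlap. Mapk3, the kinase ERK1, had -0.91 (edgeR FDR 0.0858) and Hras, a Ras GTPase, -0.73 (edgeR FDR 0.115).

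The 8 negative regulators had a median of -0.55, led by Socs1 at -1.11 (edgeR FDR 0.193) and Ptprf, a receptor phosphatase, at -0.69 (edgeR FDR 0.153). In that list 1 was lower and 0 higher without overlap. Of the 4 FOXO factor genes, Foxo1 had 49.3 CPM in the mean at 5 mM and 30.1 at 25 mM glucose, without overlap (log2 fold change -0.71, edgeR FDR 0.0718). Foxo4 had 9.97 and 6.85 CPM, with overlap (-0.54, edgeR FDR 0.224). The 10 FOXO targets went both ways, with 3 below 0, 7 above 0 and a median of 0.13, and 2 were lower and 2 higher without overlap. Pdk4, the kinase that shuts off pyruvate dehydrogenase, had 12.9 and 3.58 CPM, a log2 fold change of -1.84 and the lowest FDR of the 71 genes (edgeR FDR 0.054). Bcl2l11, which encodes the death factor BIM, had 40.9 and 23.2 CPM, with -0.82 (edgeR FDR 0.0653).

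**Figure D5:**
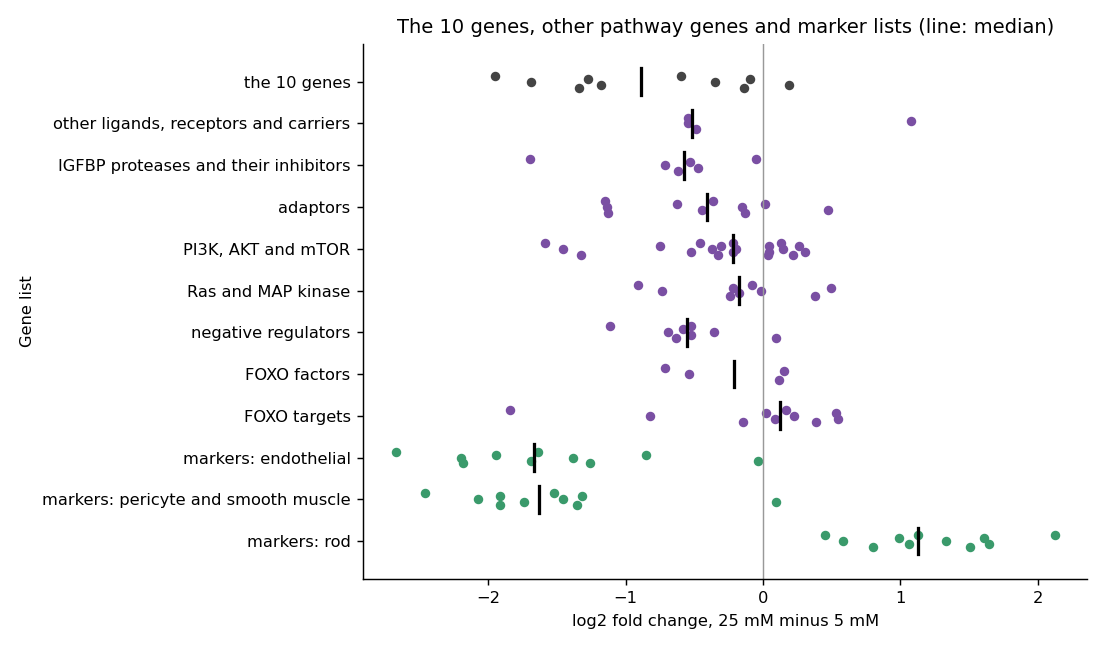
Log2 fold change (25 mM minus 5 mM) of each tested gene in the 10 genes, in 8 lists of other pathway genes (purple) and in 3 marker lists (green), with a line at the median of each list. The medians are -0.89 for the 10 genes, from -0.58 to 0.13 for the pathway lists, and -1.67, -1.63 and 1.13 for the endothelial, pericyte and rod markers.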

How the data were processed

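RNA-seq of retinal explants was analysed from 12 libraries, with 3 biological and 2 technical replicates at each glucose concentration. Libraries were made by the authors from 4 ng of total RNA with a stranded low-input kit and 13 cycles of amplification, and were sequenced as pairs of 101 bases. The authors deposited estimated counts (expected counts) per gene and per transcript, without normalization between libraries. Of the nonzero values, 100% in the gene table and 86.7% in the transcript table are not whole. The submitters' processing notes name the build GRCm38. The aligner, counting tool and annotation are not given in the sources used here. 0 columns were left unused.

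Technical replicates were summed and rounded to whole numbers, because the planned design spoke of counts and the values are estimates. The sums held between 37944826 and 60098862 counts. Amplified pairs carry no molecular identifiers, so depth bears on counting error only. Counts were scaled by TMM, filtered with filterByExpr and tested by quasi-likelihood in edgeR 4.0.16 in its earlier form (R 4.3.3), without a block, with Benjamini-Hochberg adjustment over 21061 genes. Log2 CPM used a prior count of 2. Symbols and positions came from GENCODE M21, which matched 48714 gene identifiers (90.7%). TPM values were computed from the transcript table and annotated lengths. Promoter windows came from RefSeq. The procedure was tried on simulated counts without batch or technical-library differences, so that trial does not bear on the dependence on single samples.

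The 10 genes, the pathway lists and the marker lists were chosen with earlier results of these data known. Named were all 10 genes, pathway genes called or with the 2 largest absolute fold changes of their list, the 3 genes most alike each gene, and defining markers. A few transcripts and markers were named after their values were seen. The alternatives were DESeq2 1.42.0, limma-voom (limma 3.58.1), scaling by RLE or by library totals, the newer quasi-likelihood method, other filters, the 12 libraries with a batch term (which counts technical replicates as separate samples, so its p-values do not rest on 12 independent samples), each batch alone, a replicate block, transcript sums and each replicate left out. The batch-by-glucose term and the sums without the second library of replicate 1 at 5 mM or the first of replicate 2 at 25 mM were added after seeing the data. Python 3.11.15, pandas 2.3.3 and matplotlib 3.10.9 were used for tables and plots.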

Additional observations from a re-analysis of the deposited data

Results flagged for a closer look

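The 6 libraries of each concentration were searched for values far from the rest in each of the 10 genes, 20 groups in all. For independent values chance gives about 1 such value in 20 groups. These libraries are technical pairs split by batch, so that rate need not hold here. The search found 1: Igfbp4 had 86.8 CPM in the first library of replicate 2 at 5 mM glucose, while the other libraries of that group lay between 20.8 and 40.8 CPM. The second library of the same replicate had 40.8 CPM, the next highest. In the transcript table the same replicate held 149.6 counts of Igfbp4-203 and 91.4 of Igfbp4-205, short transcripts of 785 and 489 bases that had at most 56.2 and 16.0 counts elsewhere.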

How the results depend on the processing

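The fold changes of the 10 genes were recomputed under 20 alternatives, 200 values in all. Of these 172 kept their direction and stayed above an FDR of 0.05, 25 kept it and passed that threshold, all of them lower at 25 mM glucose, and 3 had the other direction. The latter were Igf1 with transcript counts summed per gene (0.093, FDR 0.797), Insr in batch 2 alone (0.18) and Irs1 without replicate 1 at 5 mM (0.063, in a range from -0.29 to 0.063 with each replicate left out), and their causes were not tested beyond the table comparison given above. With edgeR 0 of the 10 genes were called, and this count was 4 with DESeq2, 3 without a filter on low counts, 4 with the 12 libraries and a batch term (a fit that counts technical replicates as separate samples), 3 in batch 1 alone, 2 without the second library of replicate 1 at 5 mM, and between 0 and 5 with each replicate left out. Over all genes, 417 of 21061 were called (309 higher, 108 lower). This count became 3240 of 22183 (1219 and 2021) with DESeq2 and 1979 of 35141 (758 and 1221) without a filter. It was 2918 of 18725 (1447 and 1471) with the 12 libraries, 3279 of 18969 (1358 and 1921) in batch 1 and 0 of 18811 in batch 2. Without the second library of replicate 1 at 5 mM it was 1722 of 20935 (885 and 837). Without the first library of replicate 2 at 25 mM it was 0 of 20901. With each replicate left out it lay between 0 and 5845, the latter of 21945 genes. With the FDR under 0.01 and fold change over 2 that the study set, 0 genes became 1420, 275, 109 and 367 under the first 4 of these alternatives. Of these, 568, 182, 103 and 137 were higher at 25 mM and 852, 93, 6 and 230 lower, in the same order. The paper reports genes that passed these thresholds, most of them higher with more glucose, and its list was not compared here. At these thresholds 56 were called without the second library of replicate 1 at 5 mM, and between 0 and 108 with each replicate left out. For the pathway genes, 0 calls of 71 became 10 of 73 with DESeq2, 1 of 71 with limma-voom and 1 of 71 with the newer quasi-likelihood method. Without a filter 9 of 77 were called, with the 12 libraries 10 of 69 and in batch 1 12 of 69. Without the second library of replicate 1 at 5 mM 5 of 71 were called, and with each replicate left out between 0 and 23. Member transcripts went from 0 calls to 5 with DESeq2. The median of all genes moved by no more than 0.059 on the log2 scale under any alternative.

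Replicate numbers were not shown to pair the samples: deviations of same-numbered replicates from their group means correlated at -0.01, -0.45 and 0.29. With a replicate block 3 of the 10 genes (Igfbp3, Igfbp5 and Igfbp7), 3 of 71 pathway genes and 990 of all 21061 genes were called.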
